A study of Mus musculus with 242 samples.

Results

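N-(1-naphthyl)ethylenediamine dihydrochloride (NED), the coupling reagent of the Griess assay for nitrite, was fed to female B6C3F1 mice at 2000 ppm, and liver RNA was hybridised to Affymetrix Mouse430_2 arrays. The 3 NED arrays were set against the 3 Rodent Chow control arrays of the same run code, which makes 6 of the 242 arrays of the series, and the probe sets of 18193 genes were tested. NED mice received the compound in chow on 7 days per week for 13 weeks and control mice received chow alone; all were 18 weeks old, and the right, caudate and median lobes of each liver were minced together. The run holds 18 arrays in 6 groups of 3. A second compound with a naphthalene ring, 1,5-Naphthalenediamine (NDA), was fed in that run at the same 2000 ppm for the same 13 weeks, and the other groups are Pentachloronitrobenzene at 8187 ppm in feed, 2,3-Benzofuran at 240 mg/kg and corn oil controls. Each array is labelled with its own animal number. The labels do not assign controls to a compound, and this run holds 1 set of chow controls.

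The liver clears aromatic amines by oxidation and conjugation. Cyp1a2, a cytochrome P450 that N-hydroxylates arylamines, is a textbook target of the aryl hydrocarbon receptor (AhR), a ligand-activated transcription factor that binds DNA elements with the core GCGTG. Sulfotransferases, acetyltransferases and glucuronosyltransferases add polar groups to the products, and the stress-responsive factor NRF2 drives glutathione transferases and other detoxifying enzymes through elements with the core TGACNNNGC. NED and NDA share the naphthalene ring and differ in how nitrogen is attached: NED has a single ring-bound nitrogen that carries an aminoethyl chain, whereas NDA has a free amino group on each ring.

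RNA quality moved with the group and bears on every result below. The RNA integrity numbers of the NED livers were 7.7, 8.1 and 7.7, against 8.8, 8.8 and 9.1 in the chow controls. The ratio of 3′ to 5′ Gapdh signal lay between 0.961 and 1.12 on the NED arrays and between 0.796 and 0.861 on the control arrays, and the same ratio for beta-actin between 2.97 and 4.17 with NED and between 2.05 and 2.08 in controls. The median probe set signal was 93.4 to 110.7 with NED and 124.7 to 136.7 in controls. None of these measures overlapped between the groups, and for each the exact two-sided permutation p was 0.1, the smallest that 3 against 3 arrays can give. Treatment and RNA quality therefore cannot be told apart in these 6 arrays. With the RNA integrity number as a covariate over the run, limma called 0 genes between NED and chow, with 1978 genes at an unadjusted p under 0.05, and with the Gapdh ratio as covariate it called 1, with 1480 at an unadjusted p under 0.05. Hepatocytes were present by their markers: the 16 measured defining genes, among them Alb, summed to between 874212 and 979368 signal units with NED and between 823233 and 846234 in controls, and none was called, with 3 at an unadjusted p under 0.05. In 10 of the 16 every NED array lay above every control, and in 0 below. Over all genes 10.2% lay all above, and over the 4549 brightest genes 26.6%.

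**Figure D1:**
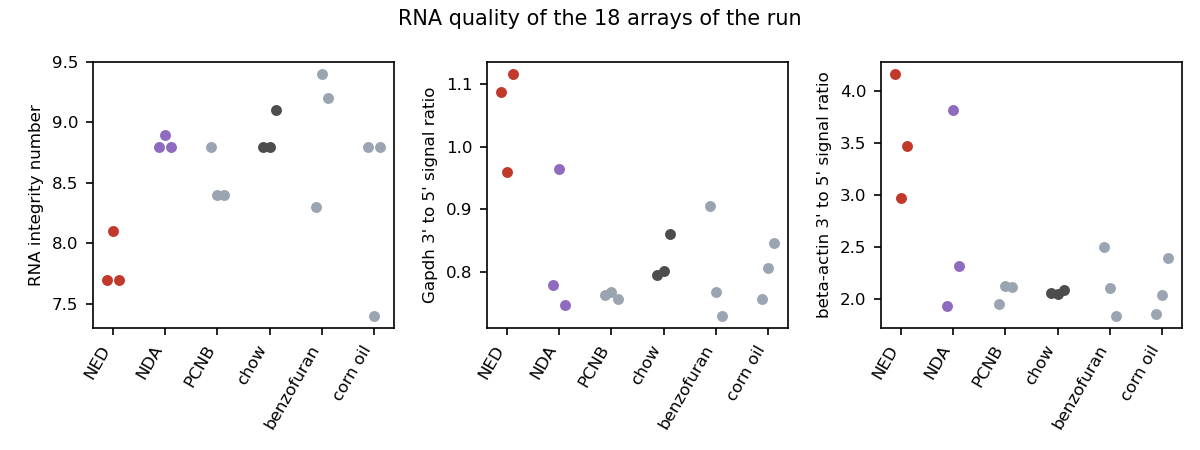
RNA integrity number and the 3′ to 5′ signal ratios of Gapdh and beta-actin (vertical axes, no unit) for the 18 arrays of the run, each point 1 array, by group. NED arrays have integrity numbers of 7.7 to 8.1 and Gapdh ratios of 0.961 to 1.12, chow arrays 8.8 to 9.1 and 0.796 to 0.861; all 3 NED points of each panel lie apart from the chow points.

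A gene was called at a Benjamini-Hochberg adjusted p under 0.05 and a fold of at least 1.5 on the log2(signal + 17.302) scale, with limma fitted to all 18 arrays. Of 18193 genes, 169 were called between NED and chow (0.929%): 54 were higher with NED (0.297%) and 115 were lower (0.632%). After quantile normalisation 70 were called, of which 61.4% were higher, in place of 32.0%. In all 169 the NED and control arrays did not overlap. Over all genes, 10.2% had the 3 NED arrays all above and 11.9% all below the 3 controls. The higher genes were mostly bright and moved little, with a median log2 difference of 0.86 and folds of 1.53 to 4.90; both group means exceeded the run's median gene signal of 180.7 in 44 of 54. The lower genes included many dim ones, with a median log2 difference of −1.48 and a largest fold of 9.46; in 77 of 115 the NED mean lay under that median, and in 24 it lay under the added 17.302. The median difference was also 0.10 over the 4549 brightest genes and −0.20 over the 4549 dimmest. Leaving out any 1 of the 6 arrays left 27 to 45 calls, and 0 genes were called when only the NED and chow arrays were fitted, with 2330 at an unadjusted p under 0.05. The p-values measure the spread between animals of 1 run, and the number of arrays limits their precision.

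**Figure D2:**
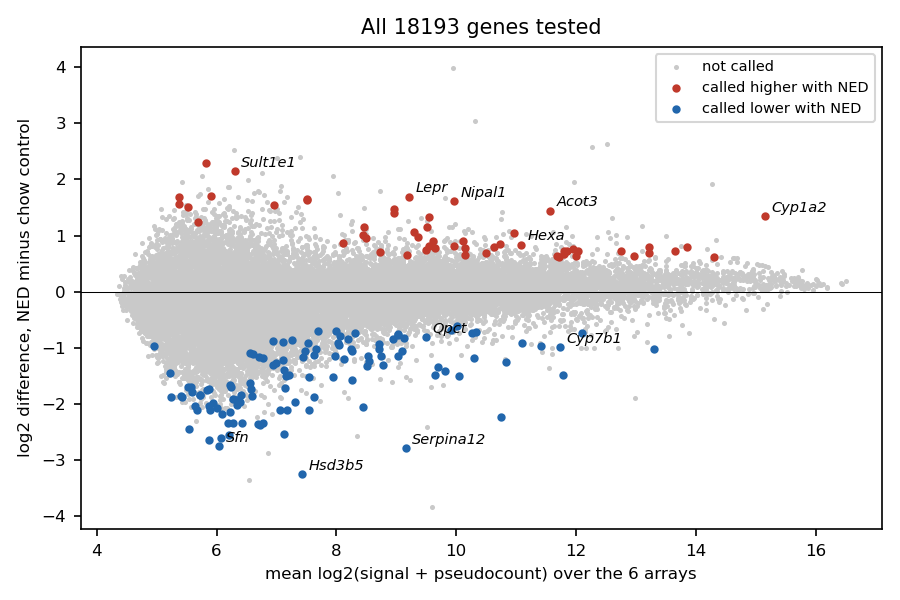
Log2 difference, NED minus chow control, against mean log2(signal + 17.302) over the 6 arrays, each point 1 of 18193 genes. The 54 genes called higher lie mostly in the bright part of the range and the 115 called lower extend into the dim part.

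Before the single genes, the promoter letters of 3 that were called higher are shown, because the binding cores of AhR and NRF2 are the elements usually named for compounds of this kind. Windows of 250 bases before to 50 bases after the gene start were searched on both strands, from RefSeq on GRCm38.p6. TGACNNNGC was found in 15.6% of the windows of 45 genes called higher and 13.6% of those of 88 called lower, against 14.2% of 14367 genes tested. GCGTG was found in 48.9% of the windows of genes called higher and 45.5% of those called lower, against 44.3% of genes tested. The shares of the called genes were close to those of all genes. The windows of Cyp1a2 and Sult1e1 held neither motif, which says only that these letters are not there. The 250 bases before the start are given for Hexa (chr9:59539290-59539539, plus strand) and Acot3 (chr12:84051894-84052143, plus strand), each with 1 TGACNNNGC match in capitals, on the reverse strand in Acot3, and for Nipal1 (chr5:72647546-72647795, plus strand), with 1 GCGTG match in capitals on the reverse strand. The motifs do not overlap in these windows.
Hexa: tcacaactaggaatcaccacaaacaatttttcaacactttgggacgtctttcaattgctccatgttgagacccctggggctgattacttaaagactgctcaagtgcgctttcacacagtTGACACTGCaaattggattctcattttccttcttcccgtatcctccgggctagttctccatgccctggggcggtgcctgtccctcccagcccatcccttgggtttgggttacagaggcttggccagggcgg
Acot3: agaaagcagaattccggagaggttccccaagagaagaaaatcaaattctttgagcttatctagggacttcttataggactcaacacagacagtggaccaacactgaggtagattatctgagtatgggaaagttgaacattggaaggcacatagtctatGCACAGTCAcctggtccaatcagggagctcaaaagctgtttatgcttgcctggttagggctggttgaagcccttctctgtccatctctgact
Nipal1: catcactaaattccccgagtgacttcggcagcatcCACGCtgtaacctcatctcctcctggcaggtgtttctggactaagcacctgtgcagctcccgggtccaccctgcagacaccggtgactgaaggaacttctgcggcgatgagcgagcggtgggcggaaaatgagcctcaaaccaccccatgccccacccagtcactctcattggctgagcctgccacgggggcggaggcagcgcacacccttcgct
The match began 131 bases before the gene start in Hexa, 92 bases before it in Acot3 and 215 bases before it in Nipal1.

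The enzymes of aromatic amine metabolism were led by Cyp1a2 and Sult1e1, which were both higher with NED. Cyp1a2 (chromosome 9) had signals of 57090, 58846 and 58914 in NED livers, against 21457, 19675 and 27993 in chow controls. Every NED liver was far above every control. The log2 difference was 1.35 ± 0.15 (SE, n = 3 each), 2.56-fold, with an adjusted p of 0.00637, the lowest of the comparison together with Nipal1. It was 1.32 with the RNA integrity number as covariate (adjusted p = 0.0881) and 1.08 with the Gapdh ratio (adjusted p = 0.142). Sult1e1 (chromosome 5), the oestrogen sulfotransferase, had low signals of 144, 155 and 148 with NED, against 10.4, 17.7 and 37.4 in controls. The 3 NED values lay close together and well above all controls, and the log2 difference was 2.15 ± 0.28 (SE, n = 3 each; adjusted p = 0.0113). With the added number 4 times higher the Sult1e1 difference was 1.27, since its control signals were low; it was still called. Of the 26 measured genes of the list of aromatic amine conjugation and oxidation, these 2 were called higher and none lower, against 0.297% called higher over all genes, and the list's median log2 difference was 0.14, against −0.05 over all genes. The acetyltransferases were not called: Nat2, which acetylates arylamines, gave a log2 difference of −0.01, and Nat1 −0.55. Of 8 measured AhR target genes, Cyp1a2 alone was called. Cyp1a1, the most inducible AhR target, had signals of 113, 81.2 and 83.9 with NED, against 19.8, 98.6 and 193 in controls, so that the groups overlapped (log2 difference 0.18 ± 0.57, SE, adjusted p = 0.91). Ahrr, the AhR repressor, and Tiparp gave 0.08 and 0.29 and were not called.

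No gene of the 30 measured NRF2 targets was called by limma against chow (10 had an unadjusted p under 0.05, 8 of them higher), and their median log2 difference was 0.09. Gstm3, a glutathione transferase, had signals of 4500, 6090 and 5985 with NED, against 3030, 2087 and 3271 in controls; the groups did not overlap, and the log2 difference was 0.99 ± 0.29 (SE, adjusted p = 0.11). Nqo1, a quinone reductase, gave 0.32 (adjusted p = 0.63) and Hmox1, heme oxygenase, 0.21 (adjusted p = 0.79). None of the 18 measured targets of the xenobiotic receptors CAR and PXR was called, with 12 at an unadjusted p under 0.05, 10 of them higher. Their median log2 difference was 0.29. In 9 of the 18 every NED array lay above every control, and in 2 below, against 10.2% and 11.9% of all genes. The share all above was 26.6% among the 4549 brightest genes. Their signals summed to 317121 to 318934 with NED and 243505 to 273912 in controls. Cyp2b10, the usual CAR target, had signals of 6172, 2828 and 5258 with NED, against 3068, 1131 and 2848 in controls, which overlapped (log2 difference 1.06, adjusted p = 0.19). Cyp3a11, the usual PXR target, was at 52804, 61283 and 53721 with NED and at 50281, 50983 and 51158 in controls, a log2 difference of 0.14 (adjusted p = 0.51).

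Besides Cyp1a2 and Sult1e1, 6 genes kept their call whichever of the 6 arrays was left out: Nipal1 and Hexa were higher, and Qpct, Sfn, Rab3a and Csnk1d were lower. None of these 8 kept it with either RNA quality measure as a covariate. None of the 169 could keep it in all 19 other settings run. Fitting only NED and chow, or adding the RNA integrity number, left no gene called. Genes left out as dim were also counted as not kept in that setting. Nipal1, a membrane protein of the magnesium transporter family, had 1771, 2148 and 1371 with NED and 631, 489 and 552 in controls (log2 difference 1.62 ± 0.19, SE, adjusted p = 0.00637). Hexa, the alpha subunit of lysosomal beta-hexosaminidase, had 2878, 3081 and 2714 with NED and 1547, 1638 and 1626 in controls (0.84 ± 0.12, SE, adjusted p = 0.0154). In both genes every NED array was above every control, and a further Nipal1 probe set gave 0.96. Hexa was the 1 gene called among 29 measured lysosome and phospholipidosis genes, whose median was 0.17.

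Qpct, the enzyme that forms amino-terminal pyroglutamate on peptides, had signals of 525, 489 and 569 with NED, against 936, 1000 and 877 in controls (log2 difference −0.81 ± 0.11, SE, adjusted p = 0.0113). Sfn, the 14-3-3 sigma adaptor protein, was near the bottom of the scale with NED at 5.13, 12.8 and 7.07, against 129, 225 and 125 in controls (−2.75 ± 0.35, SE, adjusted p = 0.00952). For both genes every NED array was below every control. The size for Sfn depends on the added number, at −1.53 with it 4 times higher and −3.69 with it 4 times lower, both called. Rab3a, a small GTPase of vesicle release, had 491, 681 and 694 with NED and 1536, 1667 and 2158 in controls (−1.50 ± 0.21, SE, adjusted p = 0.0154). Csnk1d, casein kinase 1 delta, had 1748, 1958 and 2091 with NED and 3497, 3838 and 4099 in controls (−0.97 ± 0.14, SE, adjusted p = 0.0154). The other probe sets of the last 2 genes did not show the same difference: 4 of Csnk1d ran from −0.22 to 0.34, and 1 of Rab3a gave 0.42.

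**Figure D3:**
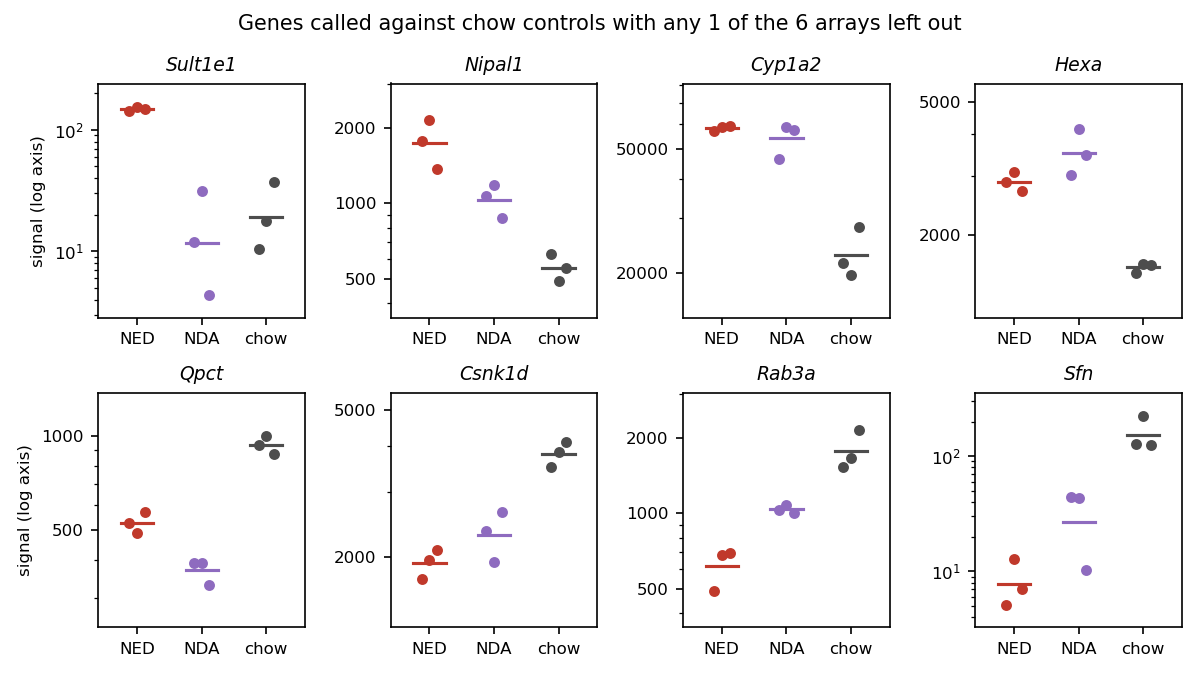
Signals (log axis, arbitrary units) of the 8 genes whose call against chow was kept with any 1 of the 6 arrays left out; each point is 1 array, bars are geometric means, and groups run NED, NDA, chow. NED and chow points do not overlap in any panel; Cyp1a2 lies at 57090 to 58914 with NED and at 19675 to 27993 with chow.

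Among genes that differ between male and female mouse liver, 3 of 12 measured male-biased genes were lower with NED and none was higher, against 0.632% called lower over all genes. Hsd3b5, a hydroxysteroid dehydrogenase typical of male liver, had signals of 19.1, 70.9 and 37.0 with NED, against 520, 903 and 281 in controls (log2 difference −3.24 ± 0.71, SE, adjusted p = 0.0489). Serpina12, the adipokine vaspin, had 90.8, 409 and 208 with NED, against 1432, 1786 and 1266 in controls (−2.78 ± 0.46, SE, adjusted p = 0.0262). Both fell without overlap, though Hsd3b5 was close to the threshold and a second, dim Serpina12 probe set gave −0.45. Cyp7b1, the oxysterol hydroxylase of the alternative bile acid pathway, had 2318, 2769 and 2143 with NED, against 4835, 5598 and 3957 in controls (−0.98 ± 0.18, SE, adjusted p = 0.0345). It was also the 1 gene called among 17 measured bile acid genes. Hsd3b5 and Serpina12 were also low with NDA, Hsd3b5 at 8.81, 52.3 and 4.07 and Serpina12 at 484, 262 and 295. Their log2 differences between NDA and chow were −3.96 and −2.09, and that of Cyp7b1 was smaller at −0.39. These differences use the same chow arrays as the NED comparison. With corn oil controls added to chow, Hsd3b5 and Cyp7b1 lost their calls against NED and Serpina12 kept its call. None of these 3 genes was called between NED and NDA. Slco1a1, an organic anion transporter of male liver, differed by −3.84 but missed the threshold (adjusted p = 0.0857): its NED signals of 17.5, 1063 and 213 were far apart, with 3115, 3185 and 2496 in controls. Of 13 measured female-biased genes, 2 were higher and none lower, against 0.297% called higher over all genes. Fmo2, a flavin monooxygenase, had 1056, 1008 and 1468 with NED and 651, 301 and 472 in controls (1.32 ± 0.26, SE, adjusted p = 0.0375). Its other probe sets gave 0.13, 0.25, 0.54 and −1.11, and the call was lost with the mean over probe sets (0.23, adjusted p = 0.72). Acot3, an acyl-CoA thioesterase that is also on the list of PPARalpha targets, had 4209, 4537 and 6560 with NED and 2884, 1456 and 1445 in controls (1.45 ± 0.27, SE, adjusted p = 0.0346). It was the 1 gene called among 26 measured PPARalpha targets, and Cyp4a14, the usual marker of PPARalpha, gave 0.76 (adjusted p = 0.26).

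Further genes called higher included Lepr, the leptin receptor, with signals of 723, 1375 and 1171 in NED livers, against 211, 515 and 279 in controls (log2 difference 1.70 ± 0.37, SE, adjusted p = 0.0488). Its other probe sets gave 1.61, 0.69 and −1.32, so that they disagree in sign; the last was dim. Plk3, a polo-like kinase of the stress response, had 815, 875 and 764 with NED and 201, 322 and 343 in controls (1.48 ± 0.26, SE, adjusted p = 0.0330). Ier3, an immediate early response gene, had 181, 216 and 188 with NED and 87.1, 25.4 and 69.9 in controls (1.54 ± 0.31, SE, adjusted p = 0.0401). 1810010H24Rik was at 88.8, 105 and 136 with NED and 5.22, 13.5 and 7.12 in controls (2.29 ± 0.38, SE, adjusted p = 0.0262). All its control signals lay under the added 17.302, and its difference was 1.20 with that number 4 times higher and 3.17 with it 4 times lower. These genes all had higher values on every NED array than on any control. The 15 largest falls also included dim genes such as Tlr1, a toll-like receptor (−2.64), and Pdgfd, a platelet-derived growth factor (−2.61), and the brighter Pik3cd, a phosphoinositide kinase (−2.24). Pik3cd had 664, 819 and 861 with NED and 2270, 2272 and 9996 in controls, where 1 control stood far above the other two. The other 5 probe sets of Pik3cd, all dimmer, gave 1.15, −0.08, −0.49, −0.55 and −0.87, and its call was lost with the mean over probe sets (−0.51, adjusted p = 0.23). For Pdgfd, Slfn9, Sp6, Mbnl3, Zbtb3 and Spon2, also of the 15 largest falls, at least 1 other probe set gave the opposite sign.

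Insig2, named here after its values were seen, had 3 probe sets with like differences. Its protein holds the sterol-sensing machinery in the endoplasmic reticulum. The tested probe set gave 6725, 6545 and 8057 with NED, against 15401, 15434 and 12352 in controls (log2 difference −1.01 ± 0.17, SE, adjusted p = 0.0292), and the other probe sets gave −1.03 and −0.86. None of 20 measured cholesterol synthesis genes and none of 22 fatty acid synthesis genes was called by limma (1 and 5 had an unadjusted p under 0.05).

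The circadian clock genes spanned the widest range of log2 differences among the 38 lists, from −2.87 to 3.98, and limma called none of the 19. Of these, 8 had all NED arrays above all controls and 4 all below, against 10.2% and 11.9% of all genes; 11 had an unadjusted p under 0.05. Dbp, a clock output factor, had signals of 2821, 4260 and 4926 with NED, against 45.7, 229 and 970 in controls (log2 difference 3.98, adjusted p = 0.14). Npas2, a factor of the activating arm, had 61.0, 20.4 and 9.87 with NED, against 361, 373 and 193 in controls (−2.87, adjusted p = 0.0603). Arntl, also of that arm, had 310, 252 and 457 with NED, against 1214, 1209 and 701 in controls (−1.57, adjusted p = 0.0566). Dbp, Per1 and Per3 were higher, and Npas2, Arntl and Cry1 lower, on each NED array than on any control, while the controls of Dbp, Per1 and Per2 were far apart from each other. Cry1, a repressor, gave −1.89 (adjusted p = 0.0543), and Per1 and Per3, period genes, 2.07 (adjusted p = 0.15) and 1.75 (adjusted p = 0.19). The hour of tissue collection is not given in the sources used here.

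**Figure D4:**
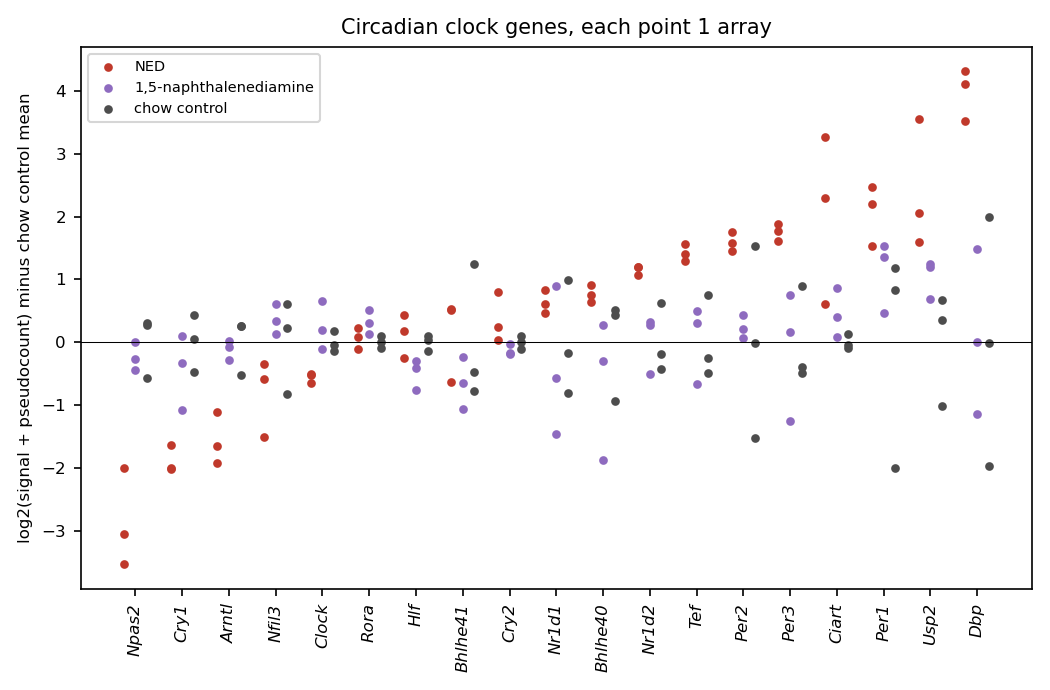
Log2(signal + 17.302) of the 19 measured clock genes minus the mean of the chow controls (vertical axis), each point 1 array of NED, NDA or chow, genes ordered by the NED difference. NED points of Npas2 (−2.87 on average) lie below, and those of Dbp (3.98) above, all chow points; no gene of the list was called.

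Stress and growth genes were mostly not called. Cdkn1a, the cell cycle inhibitor p21 and a p53 target, had 141, 30.2 and 299 with NED, against 462, 1295 and 759 in controls (log2 difference −2.56, adjusted p = 0.0818). None of the 24 measured genes on the list of p53 targets was called, with 9 at an unadjusted p under 0.05. Sfn, called lower above, is not on that list. Top2a, topoisomerase II of dividing cells, was the 1 gene called among 37 cell cycle genes, at 61.8, 97.7 and 98.5 with NED and 204, 149 and 166 in controls (−0.89, adjusted p = 0.0488), but its other probe sets gave 0.10 and 0.16. Ccnd1, cyclin D1, gave −0.42 (adjusted p = 0.44). Mt1, metallothionein, had 49694, 22561 and 49837 with NED and 5632, 21407 and 8598 in controls (1.92, adjusted p = 0.13). None of 16 measured fetal and tumour markers was called, with 4 at an unadjusted p under 0.05. In all, 11 of 38 lists held a called gene and 27 held none.

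Markers of other cells gave 1 call. Ighm, the immunoglobulin mu chain of B cells, had 282, 137 and 246 with NED, against 590, 629 and 469 in controls (log2 difference −1.32 ± 0.27, SE, adjusted p = 0.0422). Its other 10 probe sets ran from −1.84 to 0.09, the brightest of them gave −0.32, and the call was lost with the mean over probe sets (−0.69, adjusted p = 0.18). In bulk liver, fewer cells of a type and less RNA per cell cannot be told apart. The 15 lymphocyte markers summed to 1226 to 1504 with NED and 1828 to 2005 in controls. The 11 bile duct markers summed to 956 to 1125 with NED and 1335 to 1670 in controls, and the 13 pancreas markers to 2240 to 3627 with NED and 4349 to 5682 in controls. The 18 stellate and fibroblast markers summed to 15251 to 16563 with NED and 17049 to 20928 in controls. These 4 sums were lower on every NED array than on any control, but single genes weigh heavily in 2 of them. In the pancreas sum, Cela1 was at 1617, 2957 and 1389 with NED and 4959, 3497 and 3624 in controls, and was not called. The lymphocyte sum includes the Ighm signals given above. Median log2 differences were 0.02 for the lymphocyte, −0.54 for the bile duct, −0.26 for the pancreas and −0.41 for the stellate list. Over all genes the median was −0.05. In the other direction, the 10 erythroid markers summed to 2794 to 3532 with NED and 2006 to 2442 in controls, the 11 adipose markers to 89345 to 102114 with NED and 78946 to 87134 in controls, and the 16 fetal and tumour markers to 38312 to 40324 with NED and 30190 to 33199 in controls. These 3 sums were higher on every NED array, but a single gene makes up much of each of them. The erythroid sum holds Alas2, at 1737, 1091 and 981 with NED and 705, 605 and 610 in controls. The adipose sum holds Pck1, also on the periportal hepatocyte list. It was at 29817, 37536 and 34684 with NED and 22214, 25289 and 26611 in controls. The fetal and tumour sum holds Gstp1, at 29360, 27757 and 30082 with NED and 22849, 24560 and 21748 in controls. None of these 3 genes was called. The median log2 differences were 0.14 for the erythroid, −0.03 for the adipose and 0.08 for the fetal and tumour list. Ighm was the 1 called gene of all these lists, and the part of the sums in the other results was not tested. The sums of 18 macrophage markers, 20395 to 23190 with NED and 22138 to 27007 in controls, overlapped, as did those of the neutrophil and endothelial markers.

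NED and NDA were then compared directly, as 1 pair of compounds at the same dose and duration. The contrast called 169 of 18193 genes (0.929%): 75 were higher (0.412%) and 94 lower (0.517%) with NED than with NDA. The NRF2 targets held more calls than any other list: 14 of 30 were lower with NED than with NDA and none higher, with a median log2 difference of −0.87, against 0.07 over all genes. Gstm3 was at 4500, 6090 and 5985 with NED and at 18381, 31199 and 33662 with NDA (−2.29 ± 0.29, SE, adjusted p = 0.00193). Ugdh, which makes the sugar donor of glucuronidation, was at 4502, 3339 and 4467 with NED and at 13224, 22710 and 26950 with NDA (−2.30 ± 0.22, SE, adjusted p = 0.000169). Aox1, an aldehyde oxidase, was at 1835, 1608 and 1713 with NED and at 7207, 8182 and 8184 with NDA (−2.18 ± 0.13, SE, adjusted p = 1.57e-06). In these genes every NDA array was far above every NED array. Abcc4, an efflux transporter, gave −1.93, Ephx1, epoxide hydrolase, −1.46, and Gclc, of glutathione synthesis, −1.25, and these 3 were called. The lowest adjusted p of the pair belonged to Pls1, an actin-bundling protein, at 21.0, 31.0 and 22.9 with NED and 307, 347 and 328 with NDA (−3.03 ± 0.14, SE, adjusted p = 9.89e-08). NED's signals of Pls1 overlapped those of chow, which were 28.4, 18.2 and 23.8.

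Of the 8 AhR targets, 1 was called lower with NED than with NDA and none higher, and their median log2 difference was −0.02. Cyp1a2 was at 57090, 58846 and 58914 with NED and at 46464, 58756 and 57375 with NDA. The log2 difference was 0.11, with a 95% interval of −0.21 to 0.44, and was not called. These signals, like those of Cyp3a11 (50281 to 61283 with NED or chow), are among the brightest given here. Whether signals this high still rise in proportion to the RNA was not tested. Cyp1a1 was at 113, 81.2 and 83.9 with NED, against 316, 1090 and 1230 with NDA (−2.82 ± 0.57, SE, adjusted p = 0.0293). The Cyp1a1 call was lost without any 1 of the NED arrays (−2.95 to −2.75, adjusted p = 0.0700 to 0.10) and without NDA replicate 2 (−2.56, adjusted p = 0.0993) or NDA replicate 3 (−2.48, adjusted p = 0.13). It was also lost with either RNA quality covariate (adjusted p = 0.30 and 0.25), and was kept in 9 of 19 other settings. Pentachloronitrobenzene, at another dose of 8187 ppm, averaged 42761 for Cyp1a2 and 12164 for Gstm3.

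Some genes were higher with NED than with NDA as well as with NED than with chow. Sult1e1 was at 144, 155 and 148 with NED and at 12.0, 31.2 and 4.39 with NDA (log2 difference 2.41 ± 0.28, SE, adjusted p = 0.00120). Lepr was at 723, 1375 and 1171 with NED and at 122, 115 and 178 with NDA (2.81 ± 0.37, SE, adjusted p = 0.00225). Acot3 was at 4209, 4537 and 6560 with NED and at 2140, 1625 and 1860 with NDA (1.42 ± 0.27, SE, adjusted p = 0.0236). All NED arrays were above all NDA arrays in these 3 genes. Insig2, at 6725, 6545 and 8057 with NED and 14260, 12080 and 13055 with NDA, was lower (−0.89 ± 0.17, SE, adjusted p = 0.0262). Of the 54 genes higher with NED than with chow, 7 were also called higher than with NDA. Of the 115 lower ones, 9 were also called lower. Over all genes, 0.412% were called higher and 0.517% lower with NED than with NDA. The comparisons with chow and with NDA use the same 3 NED arrays, so calls shared by them are not independent. For NDA against chow, 18 of the 54 were also called higher and 52 of the 115 also called lower. That comparison called 640 of 18193 genes (3.52%), and it used the same 3 chow arrays.

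Of the 8 genes that kept their call against chow with any array left out, Sult1e1 was the 1 called between the compounds. For Hexa the log2 difference between NED and NDA was −0.28 (95% interval −0.54 to −0.03), for Csnk1d −0.25 (−0.55 to 0.05), for Sfn −0.88 (−1.63 to −0.14) and for Rab3a −0.74 (−1.20 to −0.28). For Nipal1 it was 0.74 (0.33 to 1.15). Qpct had an adjusted p of 0.0499 but a fold of 1.40, under the required size. These intervals do not show that the compounds act alike. Against the same chow arrays, Cyp1a2 (log2 difference 1.24), Hexa (1.12) and Nipal1 (0.88) were also called higher with NDA. Qpct (−1.299), Sfn (−1.87) and Csnk1d (−0.73) were also called lower, and Rab3a (−0.76) and Sult1e1 (−0.26) were not called. Pentachloronitrobenzene differed from chow in the same direction as NED, as in Cyp1a2 (0.91) and Sfn (−2.18), except in Sult1e1 (−0.31). The part of the shared chow arrays in this was not tested. NDA replicate 2 had been deposited on a lower scale and was multiplied by 5.92; without it 87 genes were called. RNA integrity was 7.7 to 8.1 with NED and 8.8 to 8.9 with NDA; with it as covariate 18 genes were called, and Ugdh, Aox1, Pls1, Gstm3 and Sult1e1 kept their calls, whereas Lepr (adjusted p = 0.0770) and Cyp1a1 lost theirs. With the Gapdh ratio as covariate 11 genes were called; Ugdh, Aox1 and Pls1 kept their calls, and Gstm3 (adjusted p = 0.0861), Sult1e1 (adjusted p = 0.0917), Lepr and Cyp1a1 lost theirs.

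**Figure D5:**
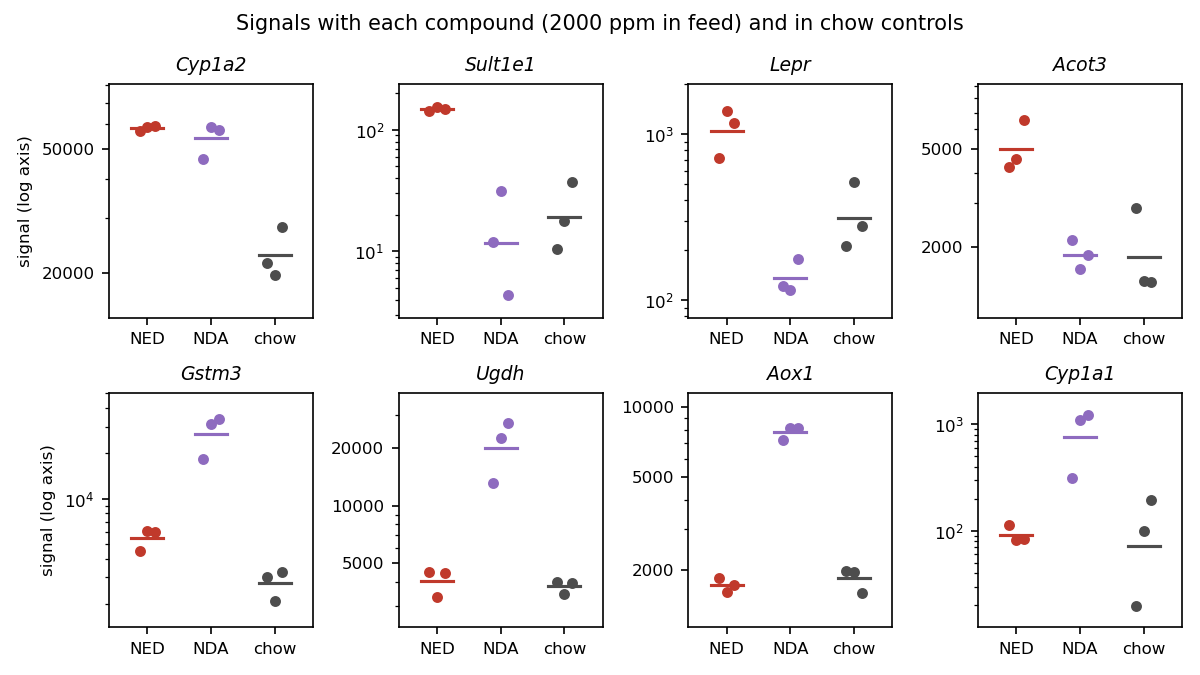
Signals (log axis, arbitrary units) of 8 genes with NED and NDA, both at 2000 ppm, and in chow controls; each point is 1 array and bars are geometric means. Cyp1a2 overlaps between NED and NDA, Sult1e1, Lepr and Acot3 are higher with NED than with NDA, and Gstm3, Ugdh, Aox1 and Cyp1a1 are lower with NED than with NDA.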

How the data were processed

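The deposited table holds signal intensities on a linear scale, made by the authors with GCOS 1.0 per the submitters' processing notes, without detection calls in the files used here; 240 of 242 arrays had a mean of 500 after trimming 2% at each end. In this run 1 array (NDA replicate 2) did not and was brought to 500 by 1 factor. Of 45101 probe sets, 34945 had 1 gene symbol; symbols were updated through RefSeq, and for each of 18193 genes the probe set brightest on average in this run was kept (9010 had several). The number added before log2, 17.302, is the median over all arrays of the 20th percentile; 21.308, from this run alone, was computed first and is given as an alternative. R 4.3.3 and limma 3.58.1 (lmFit, eBayes) fitted 1 mean per group over 18 arrays, which leaves 12 residual degrees of freedom; p-values were Benjamini-Hochberg adjusted. On simulated data of 18193 genes, changes were put only into brighter genes, with normal noise and no difference in RNA quality. Between NED and chow, 72% of log2 changes of 1 and 99% of log2 changes of 2 were called, with 7 false calls. These shares do not apply to dim genes. Python 3.11.15 with pandas drew motif counts, list counts and figures. Genes named were the 15 largest rises and falls among called genes whose arrays do not overlap, the 5 lowest adjusted p in each direction, up to 4 called genes per list (or the 2 lowest p), 16 marker genes of xenobiotic response and, against NDA, the 10 largest in each direction. Insig2, Nat1, Nat2, Ahrr, Tiparp, Slco1a1, Gclc, Dbp, Npas2, Per1, Per2 and Per3 lie outside that rule and were named after their values were seen. The compounds and lists were chosen with earlier results of these data known. Replicates are numbered in accession order.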

Additional observations from a re-analysis of the deposited data

How the results depend on the processing

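For NED against chow, the 169 calls became 70 after quantile normalisation (43 higher, 27 lower, 60 shared with the 169, a share of higher calls of 61.4% in place of 32.0%), 366 with dim genes left out, 93 with the added number 4 times lower and 274 with it 4 times higher. They became 27 with the values as deposited, where 1 array of the run is dimmer and widens the spread, 48 with the mean over probe sets, 422 with an intensity trend and robust prior, and 289 with corn oil controls added to chow. Fitting only the 2 groups left 0 calls; the RNA integrity number as covariate left 0 and the Gapdh ratio 1. All probe sets (198), the probe set chosen over all arrays (126) and the added number from this run (173) stayed within 1.5 times. Leaving out 1 array gave 27 to 45. For NED against NDA, the 169 calls became 277 with dim genes left out, 4 with only the 2 groups, 32 as deposited, 18 with the RNA integrity number, 11 with the Gapdh ratio and 301 with trend and robust prior; leaving out 1 array gave 70 to 122. Where no construction is named, the cause was not tested. With the probe set chosen over all arrays of the series, after seeing the data, the log2 differences against chow turned to 0.16 for Top2a, 0.68 for Slfn9, 0.59 for Sp6 and 0.13 for Pdgfd, none of them called. Other probe sets of 102 called genes had the same sign in 132 of 209 cases. No paired analysis was possible because the labels give no replicate numbers that link animals between groups. Dim genes have little signal over background, and the files used here have no detection calls.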
